A study of Saccharomyces cerevisiae with 18 samples.

Results

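Transcript levels in yeast cells lacking DOT4 were compared with those of wild type cells on 6 of the 18 arrays of the study, chosen by the genotype and channel that their labels name. DOT4 is the older name of UBP10 (YNL186W). The strains were UCC6389 (wild type) and UCC6390 (dot4 null), both grown in YEPD, a rich glucose medium, and total RNA of each strain filled 1 of the 2 channels of every array. The labels number 3 sets, and each set holds 1 array with the null RNA in channel 1 and 1 with it in channel 2. They name 1 strain for each genotype and do not give its marker genes. Nothing in them tells whether a set is a culture of its own. The p-values reflect how far the means of the 3 sets differ among themselves, which may be technical variation. A difference between the 2 channel orders that is alike in all sets does not enter them. The other 12 arrays compare a ubp8 null and a dot4 ubp8 double null with the same wild type strain.

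Ubp10 is a ubiquitin protease that removes ubiquitin from histone H2B, and its name DOT4 (disruptor of telomeric silencing) comes from a screen for genes that weaken silencing near telomeres when overexpressed. In budding yeast the Sir proteins form silent chromatin at the silent mating loci and inward from the chromosome ends, where seripauperin (PAU), COS and Y' helicase genes lie in repeated families. Ubp8, the protease of the SAGA coactivator complex, removes ubiquitin from H2B as well.

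Each value is the log2 ratio of null over wild type of an open reading frame (ORF), after every array was set to a median of 0 over all ORFs. A set mean averages the 2 arrays of a set, and each difference is given as the mean ± the standard error of the limma fit (n = 3 set means). A difference is called where its Benjamini-Hochberg adjusted p over 6205 ORFs is under 0.05. The wording of the labels puts the wild type gene before the null allele, and read in that order every sign below would be turned. With channel 2 divided by channel 1, UBP10 is low in the strain that lacks it, and all values are given in that direction.

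UBP10 was lower in the dot4 null on all 6 arrays. Its values in sets 1 to 3 were -4.86, -5.10 and -4.27 on the channel 2 arrays (those whose channel 2 held the null RNA) and -5.57, -5.30 and -5.24 on the channel 1 arrays. Values by array are given in this order below. The mean was -5.06 ± 0.09, which is 33.3-fold lower (adjusted p = 3.49e-06). The ORFs numbered on either side of UBP10 moved little: SWT21 read 0.22 ± 0.02 and MRPL19, a mitochondrial ribosomal protein gene, 0.25 ± 0.02. UBP8 read -0.15, -0.13 and -0.15 in channel 2 and -0.01, -0.02 and 0.03 in channel 1, a mean of -0.07 ± 0.02 (adjusted p = 0.0282) that came from 1 orientation.

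The differences were many and mostly small. Of the 6205 ORFs, 2011 (32.4%) were called higher and 2183 (35.2%) lower, with a median standard error of 0.025 and a smallest called change of 0.059. Higher ORFs made up 47.9% of these calls, and 74.5% (2611 against 896 lower) with the arrays left uncentred. At least 1.5-fold changes were called for 114 higher ORFs (1.84%) and 59 lower ORFs (0.951%), and 170 of these 173 lay on the same side of 0 on all 6 arrays. Of the 4021 smaller calls, 2384 did so. The 2 orientations differed from each other: the difference between them was called for 3822 ORFs, and arrays of the same orientation correlated over all ORFs at 0.861 to 0.951, against 0.287 to 0.491 for arrays of opposite orientation. Tested within each orientation alone, 988 ORFs (15.9%) were called higher and 936 (15.1%) lower in both, among them 111 of the 114 and 57 of the 59 changes of at least 1.5-fold. Counts of list members below are to be read against these shares of all ORFs, 32.4% called higher and 35.2% called lower, and 15.9% and 15.1% where both orientations are meant.

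The largest increases were in URA3 and ADH4, and several other genes that laboratory strains often carry as markers changed too. URA3, which encodes the orotidine phosphate decarboxylase of uracil synthesis, read 3.65, 3.64 and 2.99 in channel 2 and 3.43, 3.71 and 3.63 in channel 1, a mean of 3.51 ± 0.07 or 11.4-fold higher (adjusted p = 3.49e-06). ADH4, an alcohol dehydrogenase gene 8 ORFs from the left end of chromosome VII, read 3.48, 3.0 and 2.60, and 3.71, 3.71 and 3.64, a mean of 3.36 ± 0.08 or 10.2-fold higher (adjusted p = 5.86e-06). All 6 arrays gave each of these genes a rise far above the spread between sets. HIS3, which encodes a histidine synthesis enzyme, was lower on every array, at -1.73, -1.68 and -1.57, and -2.06, -1.98 and -2.12, a mean of -1.86 ± 0.02 (adjusted p = 1.79e-06). ADE2 of purine synthesis rose by 0.79 ± 0.03, and LEU2 of leucine synthesis fell by 0.73 ± 0.02, each on all 6 arrays. MET17 rose by 0.51. TRP1 and LYS2 were called lower at -0.21 and -0.18, but their means in channel 1 were above 0, at 0.20 and 0.38. CAN1 read -0.08. As background, URA3 placed at ADH4 and ADE2 placed near a telomere are widely used reporters of telomeric silencing in yeast, and gene disruptions are often marked with HIS3 or LEU2. Whether these strains carry such constructs was not tested.

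The ORFs beside the marker genes at their normal places changed less or not at all, apart from an overlapping ORF. The neighbours were chosen by their number, outside the rule for named genes. Next to URA3, GEA2 read -0.00 (adjusted p = 0.979) and TIM9 0.18. MRM1 and DED1, on either side of HIS3 and YOR203W, read 0.08 and 0.06 (adjusted p = 0.0872 for DED1). YOR203W itself, which overlaps HIS3, fell by 1.88, and the values do not tell the strands apart. RGA1 and AFI1 beside ADE2 read 0.14 and -0.09, and YCL019W (a Ty element ORF) and NFS1 beside LEU2 read -0.19 and -0.34. ADH4 differed in this: on its inner side ZRT1, the high-affinity zinc transporter gene, read 1.10, 1.08 and 1.14 in channel 2 and 0.83, 0.82 and 0.85 in channel 1, a mean of 0.97 ± 0.02 or 1.96-fold higher. On its outer side MNT2, a mannosyltransferase gene, read -0.56 with a mean of 0.17 in channel 1, and VEL1, the next ORF outward, read -0.07 and was not called. Of the 9 genes of the zinc list only ADH4 and ZRT1 were called higher, and 1 was called lower. ZAP1, the gene of the zinc-responsive activator, read -0.05, ZRT2 0.04 and ZPS1 0.04, none of them called. ZRT2 and ZPS1 were called higher in channel 2 alone (0.17 and 0.16) and without centring (0.13 each). ZAP1 was called lower in channel 2 alone (-0.18), and ZRT2 was called lower in channel 1 alone (-0.09).

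**Figure D1:**
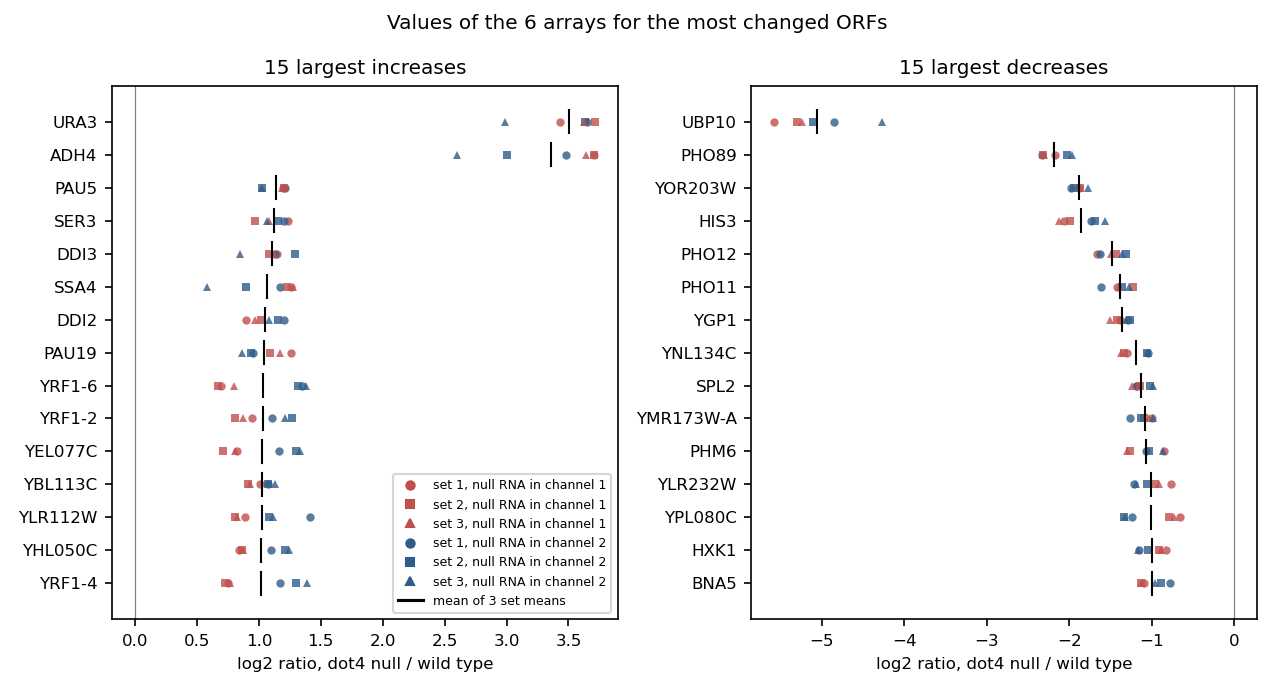
Log2 ratio of null over wild type (x axis) on each of the 6 arrays for the 15 largest increases and 15 largest decreases among ORFs whose 3 set means agreed in sign, with colour for the channel of the null RNA, shape for the set and a black bar at the mean. URA3 and ADH4 near 3.4 and UBP10 at -5.06 stand apart, and the other increases shown have means between 1.02 and 1.14.

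Apart from URA3 and ADH4, most of the genes that rose most lay near chromosome ends. ORFs were ranked from each end by systematic number, since the files give no coordinates, and the ranks are orders, not distances. Among the 160 ORFs of ranks 1 to 5 on the 32 arms, 122 were called higher and 17 lower, and 55 (34.4%) rose by at least 1.5-fold against 1.84% of all ORFs. Their median was 0.297, with set medians of 0.330, 0.307 and 0.304. The rise faded inward: 12 of 160 ORFs at ranks 6 to 10 (7.50%) and 7 of 320 at ranks 11 to 20 (2.19%) rose by at least 1.5-fold, with medians of 0.068 and 0.010. The remaining 5565 ORFs had a median of -0.014, and 40 of them (0.719%) rose this much. Falls of 1.5-fold or more were called for 4 of the 160 ORFs of ranks 1 to 5 and 4 of 160 at ranks 6 to 10. Of all ORFs 0.951% fell this much. Members of the repeated families cannot be taken as separate measurements, since arrays may not separate their sequences. With the listed members of these families left out, 127 ORFs of ranks 1 to 5 had a median of 0.277, and 34 of them (26.8%) rose by at least 1.5-fold. These still included ORFs without a gene symbol, such as YEL077C at 1.02, that read like the Y' helicase genes. With ORFs without a symbol left out too, 49 ORFs remained with a median of 0.121. Of these 49, 30 were called higher and 9 lower, and 2 (4.08%) rose by at least 1.5-fold, so nearly all of the large rises at ranks 1 to 5 were in repeated families and unnamed ORFs. At ranks 6 to 10 the same step left 6 of 100, among them ADH4 and ZRT1.

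**Figure D2:**
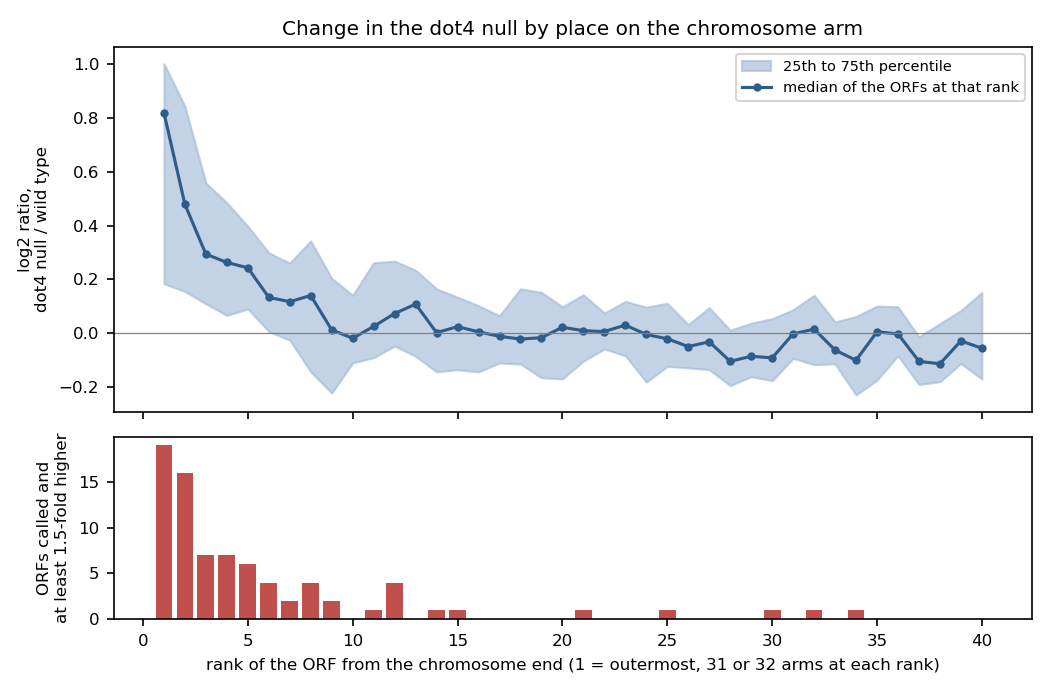
The upper panel shows the log2 ratio of null over wild type by rank from the chromosome end (1 is outermost), with the median and the 25th to 75th percentile band over 31 or 32 arms at each rank, and the lower panel counts ORFs called at least 1.5-fold higher at each rank. The median falls from 0.82 at rank 1 and 0.48 at rank 2 to -0.02 at rank 10, and the count from 19 and 16 to 0.

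Arms differed from one another. Of the 32 arms, 25 had at least 1 ORF that rose 1.5-fold or more among the outer 5, 9 had at least 3, and 7 had none (the right arms of I, VI, X, XI and XIV and the left arms of III and XV). The highest medians of the outer 5 were 0.916 on VI left, 0.890 on XIV left and 0.781 on VIII left and IV right, and the lowest were -0.184 on XIII left, -0.065 on I right and -0.059 on XVI right. The longest unbroken run of changes of at least 1.5-fold from an end was 6 ORFs on VI left, where YFL068W, YFL067W, YFL066C, YFL065C, YFL064C and YFL063W rose by 0.97, 0.93, 0.71, 0.92, 0.80 and 0.68. None of these 6 has a gene symbol. Beyond this run the profile alternated. COS4 read 0.19, DDI3 (a cyanamide hydratase gene) rose by 1.10, SNO3 and SNZ3 of vitamin B6 synthesis read 0.15 each, and THI5 of thiamine synthesis rose by 0.82. Chromosome XIV left holds a near copy of this block and gave the same profile, with COS1 at 0.18, DDI2 at 1.05, SNO2 at 0.14, SNZ2 at 0.13 and THI12 at 0.73. The copies may share signal on the array. On XII right all ORFs of ranks 1 to 8 were called higher, from YRF1-5 at 1.0 to YLR460C at 0.65, with PAU4 at 0.92 and YLR465C lowest at 0.49.

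**Figure D3:**
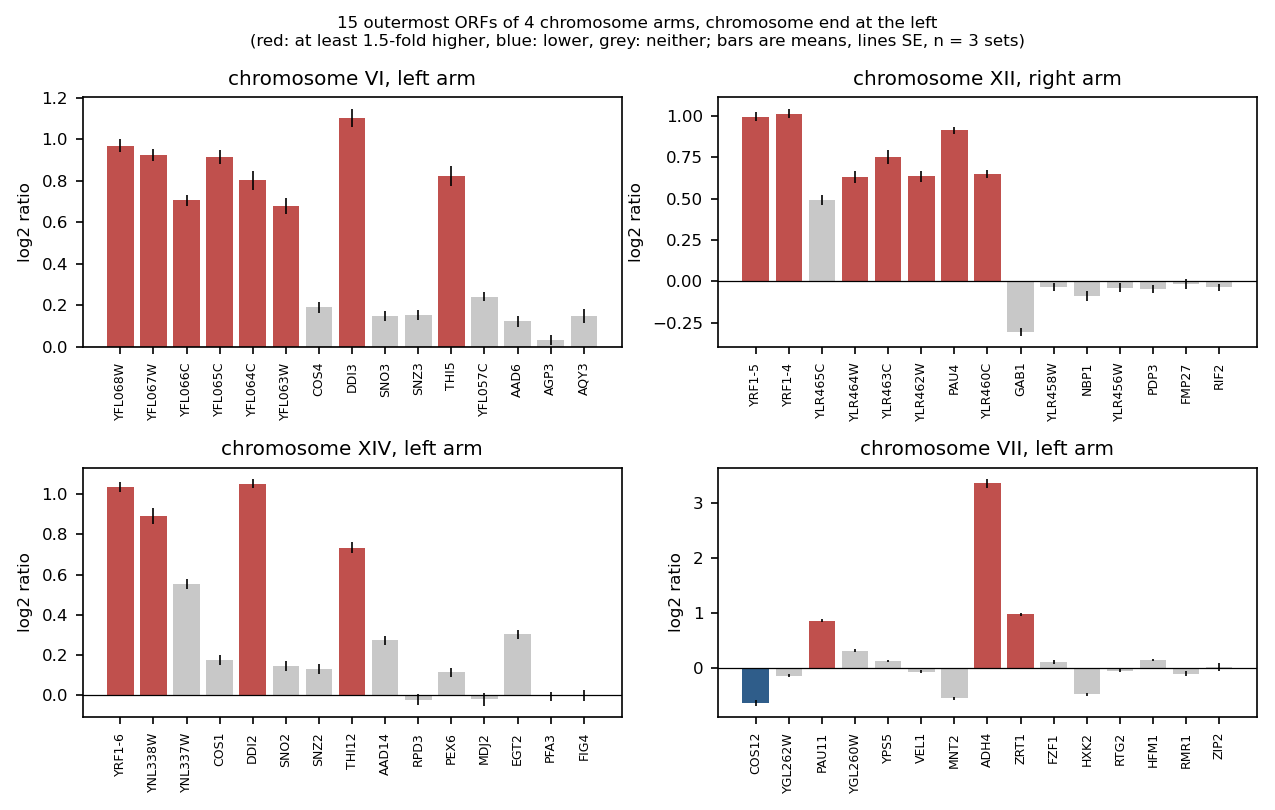
Log2 ratio of null over wild type of the 15 outermost ORFs on 4 chromosome arms, with the end at the left, as bars of the mean with lines of ± 1 SE (n = 3 sets), red where called at least 1.5-fold higher, blue where lower and grey otherwise. Scales differ between panels. VI left and XII right begin with runs of higher ORFs, VI left and XIV left share the raised DDI and THI genes, and on VII left ADH4 and ZRT1 stand at ranks 8 and 9.

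Adjacent ORFs that both changed by at least 1.5-fold formed 27 runs with 65 ORFs, and 20 of these runs lay within 20 ORFs of an end. The 7 inner runs included PRM7, YDL038C and BSC1 on chromosome IV, which rose by 0.88, 0.82 and 0.70. The others held HIS3 with YOR203W, PHO3 with PHO5, PGK1 with YCR013C, BNA5 with YLR232W and DDR48 with YMR173W-A, which fell together, and YCL041C with GLK1, which moved apart (0.67 and -0.78). Several of these pairs are overlapping ORFs, whose signals the values do not tell apart. No whole chromosome stood out, since the medians of ORFs beyond rank 20 ranged from -0.068 on I to 0.013 on XIV.

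The seripauperins, small cell wall mannoproteins most of whose genes sit near telomeres, rose together. Of 23 measured PAU genes 21 were called higher and none lower, 20 of them at 1.5-fold or more, and their median was 0.838 against -0.007 over all ORFs. All 21 were called in both orientations, with medians of 0.839 in channel 1 and 0.834 in channel 2. PAU5 read 1.21, 1.02 and 1.03, and 1.19, 1.20 and 1.18, a mean of 1.14 ± 0.03 or 2.20-fold (adjusted p = 5.86e-06). PAU19 rose by 1.04 ± 0.03, PAU17 by 0.99 and PAU20 by 0.98. The rise was not limited to members near an end. PAU5 and PAU17 lie at ranks 51 and 43, and PAU2 (0.83) and PAU7 (0.64) at ranks 32 and 25. The 7 measured Y' helicase genes of the YRF1 family all rose, with a median of 1.009, but more strongly in channel 2 (median 1.283) than in channel 1 (median 0.748). YRF1-2, for example, read 1.11, 1.27 and 1.21, and 0.94, 0.80 and 0.87, a mean of 1.03 ± 0.02. The near-identical copies of these families may share probes and were not separate measurements.

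Other families with members near the chromosome ends or in the cell wall moved less. Of 12 COS genes, which encode membrane proteins of the endosomal sorting route, 10 were called higher and 2 lower, but their median was 0.175 and 1 was called higher in both orientations. Of 5 flocculin genes, which encode cell adhesion proteins, 4 were higher with a median of 0.283. Of 8 DAN and TIR genes, which encode anaerobic mannoproteins, 4 were higher and 1 lower, and TIR4, which lies far from an end, rose by 0.82. PAU24 belongs to this list and to the PAU list. The silent mating loci changed little: HMRA2, HMRA1 and HMLALPHA2 read 0.13, 0.11 and 0.10 and HMLALPHA1 -0.03, and none was called in both orientations. Without set 2, 1 of the 4 was called higher. The MAT locus and the silent copies share sequence.

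Genes of the silencing and H2B ubiquitin machinery itself moved by less than 1.5-fold. Among 15 SIR and telomere genes 6 were higher and 3 lower (2 and 2 in both orientations), near the shares of all ORFs or below them, with a median of -0.037. RAP1, the telomere binding factor that recruits Sir proteins, rose by 0.25 ± 0.02, ESC2 by 0.21 and SIR3 by 0.15, YKU80 of the end-binding Ku complex fell by 0.36 ± 0.03 and YKU70 by 0.10. SIR1, SIR2 and SIR4 read -0.11, -0.08 and -0.01 and were not called. Among 16 genes of H2B ubiquitination and linked methylation 10 were higher and 1 lower (4 and 0 in both orientations), with a median of 0.094. They included SHG1 at 0.18, RTF1 at 0.15, and CDC73 and the ubiquitin ligase gene BRE1 at 0.14, with SWD1 at -0.08, while the conjugating enzyme gene RAD6 read 0.00. Of 17 measured SAGA genes 8 were higher and 2 lower (2 and 2 in both orientations), with TAF10 at 0.28, SPT3 at 0.22, ADA2 at -0.44 and SGF29 at -0.16. Among other ubiquitin proteases UBP1 read 0.31 and UBP2 -0.24. The 4 core histone H3 and H4 genes were higher, with HHF1 at 0.44 ± 0.03, HHF2 at 0.40, HHT1 at 0.32 and HHT2 at 0.30, although HHT2 read -0.20 in channel 1. The H2A and H2B genes were not: HTA1 and HTA2 read -0.02 and 0.08 and were not called, and HTB1 and HTB2 were called lower at -0.11 and -0.14 with means above 0 in channel 2 (0.41 and 0.17). Of all 10 genes of the histone list 4 were called higher and 4 lower (3 and 0 in both orientations). The list depended on the orientation, with medians of -0.256 in channel 1 and 0.452 in channel 2.

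Genes of phosphate acquisition held the most falls of 1.5-fold or more among the gene lists. Most of these genes, though not PHO3, are induced by the factor Pho4 when phosphate is scarce. The list includes genes of phosphatases, transporters and the polyphosphate polymerase. Of 17 genes 14 were called lower and 2 higher, 9 of them lower by at least 1.5-fold against 0.951% of all ORFs, and their median was -0.595 against -0.007. All 14 were lower in both orientations. PHO89, a sodium-coupled phosphate transporter gene, had the largest fall after UBP10, at -2.33, -2.02 and -1.96, and -2.18, -2.31 and -2.31, a mean of -2.18 ± 0.03 or 4.54-fold lower (adjusted p = 1.79e-06). No array gave PHO89 a value above -1.96. The secreted acid phosphatase gene PHO12 read -1.63, -1.31 and -1.36, and -1.66, -1.43 and -1.50, a mean of -1.48 ± 0.05, and its close copy PHO11 -1.38. These copies lie at the ends of VIII right and I right, whose outer 5 ORFs had medians of 0.672 and -0.065, and may share signal. SPL2, an inhibitor of low-affinity uptake, fell by 1.12, PHM6 by 1.06 and the vacuolar phosphatase gene PHO8 by 0.92. Smaller falls were seen for VTC3 (0.61), PHO3 (0.61) and PHO5 (0.595), and the adjacent PHO3 and PHO5 may share signal too. PHO84, the high-affinity transporter gene, fell by 0.52 ± 0.03, and PHO81, a kinase inhibitor gene, by 0.22. The 2 higher genes were PHM8 at 0.23 and the glycerophosphoinositol transporter gene GIT1 at 0.17, whose mean in channel 2 was -0.21. Regulators of the pathway moved little: of 9 genes 2 were higher and 4 lower, with a median of -0.066, PHO4 at -0.14 and the transporter PHO87 at 0.21.

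Genes that build ribosomes rose, while genes that encode ribosomal proteins were lower. Of 49 genes of the small subunit processome 46 were called higher and none lower (median 0.276), of 48 large subunit assembly genes 44 were higher and none lower (median 0.318), and of 10 RNA polymerase I genes 9 were higher and none lower (median 0.260). In both orientations 85 of the 107 genes were called higher, against 15.9% of all ORFs. Single changes were small. FAL1, an RNA helicase gene, read 0.74, 0.62 and 0.68, and 0.79, 0.77 and 0.91, a mean of 0.75 ± 0.03, and RRN3, an initiation factor of RNA polymerase I, rose by 0.69 ± 0.02. These 2 genes alone passed 1.5-fold, and NOP15 was next below it at 0.58 ± 0.03. Of 137 ribosomal protein genes 134 were called lower, against 35.2% of all ORFs, and 1 higher, with medians of -0.314 for the small and -0.322 for the large subunit. This fall came mainly from channel 1, where the medians were -0.660 and -0.609, against -0.034 and -0.051 in channel 2, and 42 of the 137 were lower in both orientations, against 15.1% of all ORFs. RPL22B and RPS22B stood apart: RPL22B read -0.97, -0.78 and -0.75, and -0.95, -0.82 and -0.84 (mean -0.85 ± 0.04), and RPS22B fell by 0.84 ± 0.03. Of 12 translation factor genes 9 were lower (median -0.140), none of them in both orientations, with medians of -0.382 in channel 1 and 0.108 in channel 2.

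**Figure D4:**
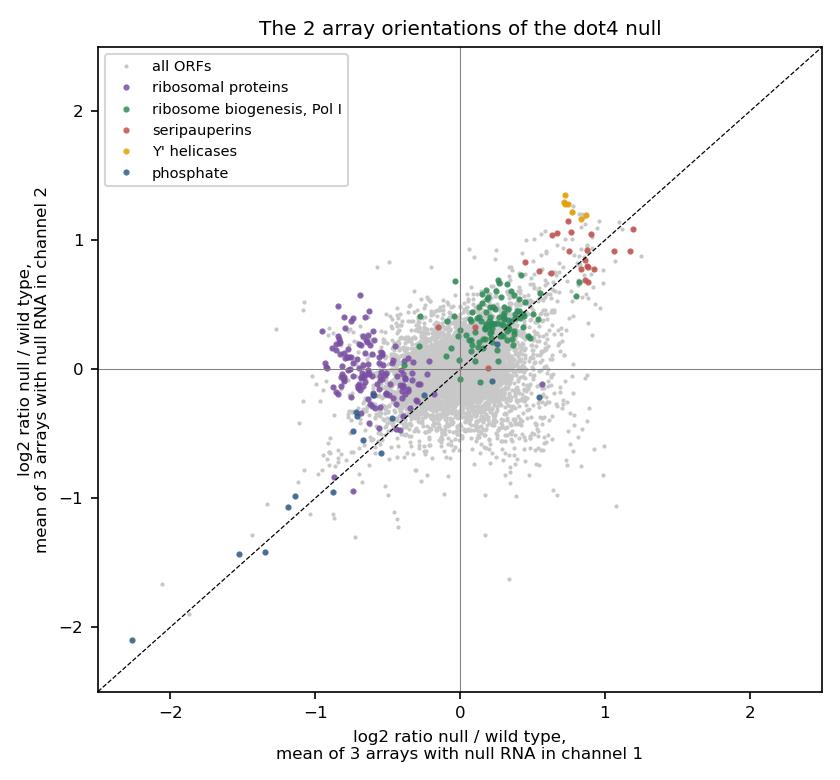
Mean log2 ratio of null over wild type of each ORF on the 3 arrays with the null RNA in channel 1 (x axis) against the 3 with it in channel 2 (y axis), as grey points with 5 gene lists in colour and a dashed line of equality. Most seripauperin and all Y' helicase genes lie above 0 on both axes, and most phosphate genes lie below 0 on both. Ribosome biogenesis genes are mostly above 0 on both axes, and ribosomal protein genes are spread along the x axis below 0 but around 0 on the y axis. Outside the axes lie 3 ORFs (URA3, ADH4 and UBP10).

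Genes of the first step of glucose use fell. The 3 enzymes that phosphorylate glucose were all lower. HXK1 read -1.16, -1.05 and -1.16, and -0.82, -0.91 and -0.89, a mean of -1.0 ± 0.02 or 2.0-fold lower, the glucokinase gene GLK1 fell by 0.78 ± 0.04, and HXK2 by 0.49 ± 0.03. All 6 arrays had each of the 3 below 0. Of 15 glycolysis and fermentation genes 14 were lower (median -0.317), but 8 were so in both orientations, with medians of -0.809 in channel 1 and -0.090 in channel 2. PGK1 fell by 0.66, and its values were -0.27, -0.25 and -0.20 in channel 2 against -1.0, -1.06 and -1.19 in channel 1. Hexose transporter genes had no common direction, with 3 of 9 higher and 2 lower, none in both orientations. Storage carbohydrate genes were lower in both orientations: of 16 trehalose and glycogen genes 12 were called lower and none higher, 9 of them in each orientation (median -0.219, with -0.18 in channel 1 and -0.289 in channel 2). They included the glycogen synthase gene GSY2 at -0.62, TSL1 at -0.56, the trehalose phosphate synthase gene TPS1 at -0.44 and UGP1 at -0.41. Of 36 respiratory genes 26 were lower and 1 higher (median -0.176), 15 of them in both orientations, with COX4 at -0.48. Of 11 other glucose-repressed genes 6 were higher and 1 lower, none in both orientations.

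Amino acid, nucleotide and vitamin genes moved singly more than as pathways. SER3, which encodes the first enzyme of serine synthesis, read 1.20, 1.15 and 1.07, and 1.23, 0.97 and 1.08, a mean of 1.12 ± 0.04 or 2.17-fold higher, on a list of 10 serine and glycine genes with 4 higher and 3 lower. GCV2, SER33 and GCV1 rose by 0.41, 0.34 and 0.32 and SER1 fell by 0.38. Of 7 histidine genes 6 were lower, 4 of them in both orientations, which included HIS4 at -0.48 and HIS5 at -0.35 beside HIS3. Of 7 leucine genes 5 were lower, 3 of them in both orientations, with the aminotransferase gene BAT2 at -0.93 ± 0.02, while LEU3, the activator gene of the pathway, rose by 0.30, and 3 were lower without set 1. Among 11 arginine genes 5 were lower and 2 higher (3 and 2 in both orientations), with ARG1 at -0.82 and CAR1 at -0.44, and among 16 sulfur and methionine genes 10 were lower and 2 higher (7 and 2 in both orientations), with the methionine synthase gene MET6 at -0.65. URA1 fell by 0.81 while URA3 rose, and the 13 pyrimidine genes were split 5 higher and 6 lower. Of 12 purine genes 7 were lower, 4 of them in both orientations. Of 14 thiamine genes 9 were higher, 3 of them in both orientations, and 4 passed 1.5-fold: THI5, THI12, the near copy THI13 at 0.69 and THI4. Among 15 iron uptake genes 9 were higher and 4 lower, 6 and 2 in both orientations, with the cell wall mannoprotein genes FIT3 at 0.75 and FIT1 at 0.59 and the siderophore transporter genes ARN2 at 0.48 and ENB1 at -0.57. Of 13 nitrogen catabolite genes 2 were higher and 7 lower, 0 and 3 in both orientations.

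Stress genes had no common direction. Of 18 heat shock genes 5 were higher and 7 lower (4 and 5 in both orientations), and the HSP70 gene SSA4 rose most, at 1.17, 0.90 and 0.58, and 1.26, 1.22 and 1.27, a mean of 1.07 ± 0.05. Its values in channel 1 were close together and those in channel 2 spread widely, but none was near 0. SSA3 rose by 0.70 and HSP12 by 0.58, while the mitochondrial chaperonin genes HSP60 and HSP10 fell by 0.52 and 0.34. Of 17 general stress genes 4 were higher and 7 lower (3 and 6 in both orientations). YGP1, a secreted glycoprotein gene, read -1.28, -1.27 and -1.31, and -1.39, -1.42 and -1.51, a mean of -1.36 ± 0.025, and DDR48 fell by 0.90, while GRE1 and RTN2 rose by 0.64 and 0.51. All 12 genes of endoplasmic reticulum folding were called lower (median -0.203), 6 of them in both orientations, led by the HSP70 gene KAR2 at -0.34 and FPR2 at -0.32. Of 33 proteasome genes 17 were lower and 3 higher, but none was lower in both orientations, and the median turned from -0.187 in channel 1 to 0.059 in channel 2. RPT1, a base ATPase, was called higher at 0.65, 0.72 and 0.55, and 0.95, 0.98 and 0.84, a mean of 0.78 ± 0.03. Of 10 DNA damage genes 4 were higher and 2 lower (3 and 0 in both orientations), with RAD54 at 0.41 and RNR4 at 0.34.

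**Figure D5:**
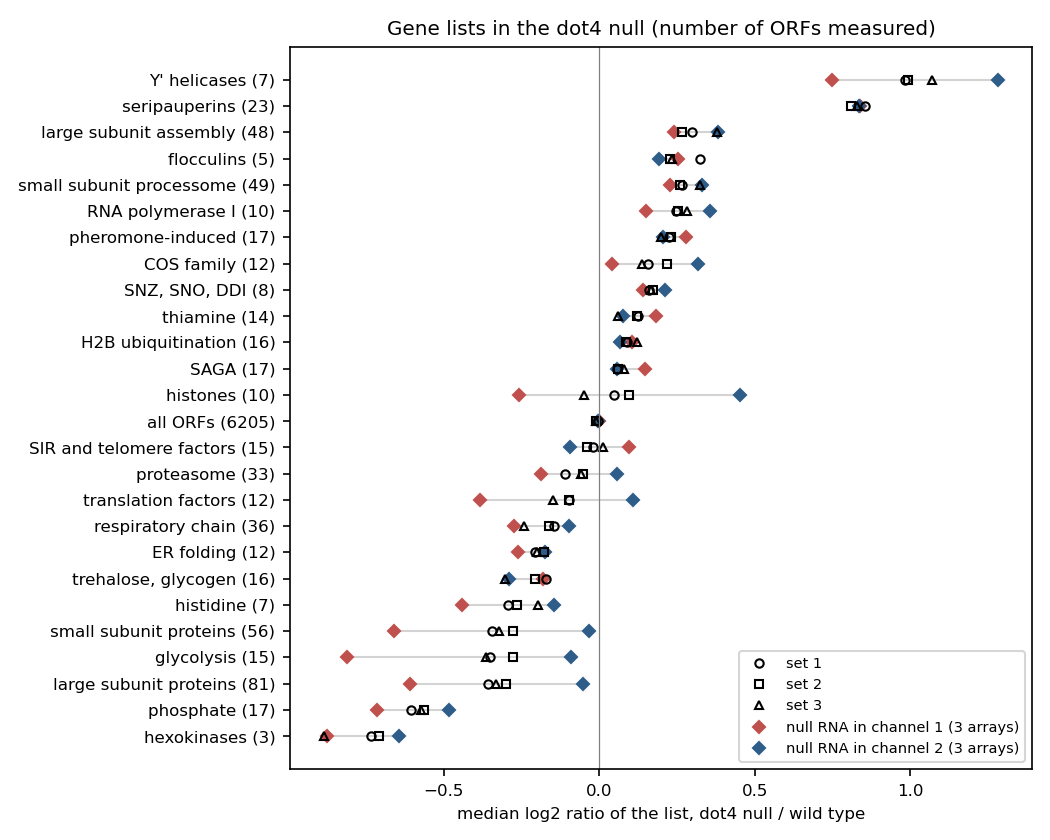
Median log2 ratio of null over wild type of each gene list (x axis, number of measured ORFs in parentheses), with open symbols for the 3 set means and diamonds for the means over the 3 arrays of each orientation. Seripauperin medians lie together near 0.84, phosphate medians are below -0.4 throughout, and ribosome assembly medians are above 0 in both orientations, while ribosomal protein and glycolysis medians are far lower with the null RNA in channel 1 (-0.809 against -0.090 for glycolysis).

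Genes induced by pheromone rose modestly. Of 17 genes induced by pheromone 13 were higher and none lower (median 0.229), 9 of them in both orientations. The agglutinin anchor gene AGA1 rose by 0.72 ± 0.03, PRM1 by 0.585, SST2 by 0.50 and FUS1 by 0.46. Of 7 genes specific to a cells 5 were called higher, 3 of them in both orientations, with a median of -0.039 in channel 1 and 0.398 in channel 2. They included the pheromone receptor gene STE2 at 0.33 and AGA2 at 0.28. The 4 genes specific to alpha cells were called higher too, but none in both orientations, and their median in channel 2 was -0.006. SAG1 led them at 0.73 ± 0.18, but its values were 0.70, 2.11 and 0.18, and 0.42, 0.52 and 0.42, so that a single array carried much of the mean. Without set 1 or set 2, 2 of the 4 were called. Of 31 sporulation genes 14 were higher and 5 lower, 3 and 1 in both orientations, with medians of 0.310 in channel 1 and -0.178 in channel 2.

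Many of the 173 changes of at least 1.5-fold fell outside every list. Among the 114 higher ORFs 64 were in no list, and 22 of these lay beyond rank 20, and among the 59 lower ORFs 33 were in no list and 30 of these lay beyond rank 20. Apart from the overlapping ORFs given above, those beyond rank 20 that were among the 20 largest changes each way included YLR112W at 1.02 and, on the lower side, YNL134C, YPL080C, BNA5 and HMF1. YNL134C read -1.04, -1.06 and -1.04, and -1.30, -1.34 and -1.38, a mean of -1.19 ± 0.02, and YPL080C fell by 1.01 ± 0.03. BNA5, the kynureninase gene of NAD synthesis, read -0.78, -0.88 and -0.96, and -1.10, -1.13 and -1.12, a mean of -1.0 ± 0.03. Genes named next were chosen after their values were seen. Higher ORFs included the GATA factor gene GAT2 at 0.89, STP4 at 0.85, the inositol phosphate synthase gene INO1 at 0.83 and the glucose repressor gene MIG2 at 0.71. Lower ORFs included the phospholipid methyltransferase gene OPI3 at -0.77, the G1 cyclin gene CLN1 at -0.78 ± 0.025, the mannoprotein gene TIP1 at -0.76 and TAL1 of the pentose phosphate pathway at -0.72. CLN1 was below 0 on all arrays, at -0.88, -0.91 and -0.83, and -0.72, -0.68 and -0.63. Of the retrotransposon Ty1 ORFs, near copies of one another, those past 1.5-fold read from -0.83 for YBL005W-A to -0.73 for YDR170W-A. Smaller changes were read for the Ty ORFs YCL020W (-0.57), YCL019W (-0.19) and YJR027W (0.08, not called). YIL082W-A, a Ty3 ORF, went the other way and rose by 0.72 ± 0.02.

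Of the 173 changes of at least 1.5-fold, a few rested on single arrays or on 1 orientation. ADE12 was called lower at -0.71 ± 0.22 (adjusted p = 0.0294) from values of -2.30, -0.36 and -0.06, and -0.63, -0.46 and -0.47. BPH1 was called higher at 0.66 ± 0.03 from 0.61, 0.23 and 1.19, and 0.84, 1.14 and -0.05, a wide spread of arrays that cancelled within sets. COS12 was low in channel 2, at -1.52, -1.78 and -1.58, and above 0 in channel 1, at 0.31, 0.16 and 0.56, so its mean of -0.64 describes neither orientation. YDR278C (0.59) and THI4 (0.72) were called higher, but each had a single low array, at -0.33 and 0.02, and neither was called in both orientations. At the threshold of 1.5-fold, PRM1 (0.585) lay just inside and SFK1 (0.581) just outside among higher ORFs, as did YRO2 (-0.593) and TMN2 (-0.580) among lower ORFs.

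The dot4 null was then set against the other deletion strains, in a fit of all 9 set means, to ask where its levels differed from theirs. Against the ubp8 null, 170 ORFs (2.74%) were at least 1.5-fold higher and 152 (2.45%) at least 1.5-fold lower, or 280 and 84 with the arrays left uncentred. Beyond the deleted genes themselves (UBP8 at 2.87 and UBP10 at -4.89), URA3 differed by 3.92 ± 0.14 (adjusted p = 8.71e-08), ADH4 by 3.42 ± 0.11, ADE2 by 1.76 ± 0.06 and ZRT1 by 1.55 ± 0.05. For URA3 the ubp8 null had fewer usable set means than the double null, with standard errors of 0.107 and 0.087. ZRT1 was above wild type in the dot4 null (0.97) and below it in the ubp8 null (-0.58). On the lower side YNL134C differed by -2.15 ± 0.07, with -1.19 in the former and 0.96 in the latter, and HIS3 by -1.51. The genes of ribosome assembly and RNA polymerase I divided the single deletions: their median was 0.309 in the dot4 null and -0.240 in the ubp8 null, and 104 of the 107 were called higher in the dot4 null against 27.9% of all ORFs. Ribosomal protein genes were called lower in the dot4 null for 113 of 137, against 30.2% of all ORFs. Their medians were below 0 in both strains, at -0.316 in the dot4 null and -0.072 in the ubp8 null. The dot4 null median was -0.629 in channel 1 and -0.039 in channel 2. Of the 23 PAU genes 20 were higher in the dot4 null, against 27.9% of all ORFs, with medians of 0.838 and 0.224. Against the same 30.2%, trehalose and glycogen genes were lower for 14 of 16, with medians of -0.219 and 0.143, and glycolysis genes for 14 of 15, with medians of -0.317 and 0.247. Phosphate genes were lower in the dot4 null for 11 of 17 and higher for 3, with medians of -0.595 and -0.256.

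Against the double null, which lacks both proteases, 45 ORFs (0.725%) were at least 1.5-fold higher in the dot4 null and 251 (4.05%) at least 1.5-fold lower, or 81 and 173 with the arrays left uncentred. On 1 double null array, set 3 with the null RNA in channel 2, the label pairs the double null's genotype with the strain number of the ubp8 null. UBP10 read -4.67 and UBP8 -3.38 on it. With that set left out of the double null, 44 ORFs were at least 1.5-fold higher and 272 lower. The gene lists below then gave the same counts, apart from 11 phosphate genes higher and 2 PAU genes called higher against 0 with the set kept. URA3 and ADH4 were higher in the dot4 null by 2.26 ± 0.12 and 1.46 ± 0.11, the Ty ORF YJR027W by 1.10 ± 0.21 and ADE17 of purine synthesis by 0.90 ± 0.07, from -0.38 and -1.28. On the lower side BPH1 came first at -1.75 ± 0.11, followed by YAT1, a carnitine acetyltransferase gene, at -1.54 ± 0.09 and BNA5 at -1.52 ± 0.06. BNA5 was below wild type in the dot4 null (-1.0) and above it in the double null (0.53). The Y' helicase genes were higher in the dot4 null for 7 of 7, with medians of 1.009 and 0.569, whereas 19 of 23 PAU genes were lower, with medians of 0.838 and 1.121. Ribosome assembly and RNA polymerase I genes were higher for 93 of 107 against 29.2% of all ORFs, with medians of 0.309 and -0.009. All 17 general stress genes were lower in the dot4 null than in the double null against 29.0% of all ORFs, with medians of -0.050 and 0.682. Of 17 phosphate genes 12 were higher in the dot4 null, with medians of -0.595 and -1.092. All 3 deletion strains were measured against UCC6389, possibly from shared RNA, on which the labels are silent.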

How the data were processed

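Per the labels, each of 6 arrays carried total RNA of the dot4 null in 1 channel and of the wild type in the other. The authors deposited log2 ratios of 6205 ORFs in 1 table of 18 arrays, 1 value for an ORF on an array. The array design, the background correction, the normalization and the dye of each channel were not given in the sources used here. The log2 scale, the missing centring and the direction (channel 2 over channel 1) were read from the deposited values. The 9 empty values and 2 stand-in values of 16.61 were treated as missing.

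Arrays were centred on their medians and those with null RNA in channel 1 had their sign reversed. Averaging both arrays of a set then removes dye effects of equal size. The 3 set means were tested against 0 with limma 3.58.1 (lmFit and eBayes) in R 4.3.3, with Benjamini-Hochberg adjustment over 6205 ORFs. The contrasts with the other null strains used 1 fit of all 9 set means. The number of arrays limits the precision. Symbols came by locus tag from a RefSeq table of assembly R64, which matched 5705 ORFs. The members and gene lists were chosen with earlier results of these data known, and lists are described by counts and medians with no test.

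Genes were named by a rule. It took UBP10, UBP8 and the ORFs beside UBP10, the 20 largest called changes each way with all set means on 1 side, up to 5 called members each way of each list, the members of 5 short lists (silent mating, SIR and telomere, H2B ubiquitin, histone and marker genes), adjacent pairs past 1.5-fold and the 5 largest differences each way in each contrast. In simulated data, 4, 38, 43 and 50 of 50 ORFs changed by 0.1, 0.2, 0.4 and 0.8 on the log2 scale were called, with 3 of 6002 unchanged ones. The simulated sets varied independently, with no orientation effect, and far fewer ORFs were changed than were called in the data. The simulated rates therefore cannot be carried over to the calls above. Alternatives left out a set, used a single orientation, no centring or scaled arrays, or a replicate block, as given in the closing section.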

Additional observations from a re-analysis of the deposited data

Results flagged for a closer look

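The values of the dot4 null differed between the orientations for many ORFs. A term for the channel of the null RNA, tested in limma over the 6 arrays, was called for 3822 ORFs. COS12 was the clearest case among the ORFs named: its term was -0.984 ± 0.054 (adjusted p = 2.21e-05), with a mean of 0.34 on the channel 1 arrays against -1.63 on the channel 2 arrays (named by where the null RNA was). The groups hold 3 arrays in each orientation, so no array was tested as standing apart from its group.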

How the results depend on the processing

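Calls of at least 1.5-fold kept within 1.5 times their count under every alternative run except single orientations, where channel 1 gave 183 higher and 212 lower and channel 2 gave 120 lower. Called the same way in each orientation, an alternative chosen after seeing the data, 988 ORFs were higher and 936 lower, and without centring 896 were lower. With the repeated families left out, 34 ORFs of ranks 1 to 5 rose by at least 1.5-fold, and with ORFs without a gene symbol left out too, also chosen after seeing the data, 2 did, and 6 of ranks 6 to 10. Among list counts, channel 1 alone gave 1 higher silent mating gene, 3 COS genes and 3 genes specific to a cells. Channel 2 alone gave 0 higher genes specific to alpha cells, and as lower 15 small and 27 large subunit ribosomal protein genes, 8 glycolysis, 17 respiratory, 3 leucine and 1 translation factor genes, the last with the median above 0. Without centring 1 translation factor, 2 leucine, 5 folding and 14 respiratory genes were lower. The cause of these changes was not tested. Against the ubp8 null, no centring gave 280 higher and 84 lower. Against the double null, 81 were higher without centring, 19 with arrays scaled to a common spread and 115 in channel 1, and 384 were lower in channel 2. With a set left out, 1718 to 1823 ORFs were higher and 1851 to 1995 lower, 113 to 119 and 60 to 66 at 1.5-fold, and the contrasts gave 151 to 178 higher and 149 to 159 lower than the ubp8 null, and 40 to 51 higher and 249 to 270 lower than the double null. Higher silent mating genes then numbered 1 to 3 (1 without set 2), lower leucine genes 3 to 4 (3 without set 1) and higher alpha-specific genes 2 to 4 (2 without set 1 or set 2). With set 3 left out of the double null alone, 44 ORFs were higher in the dot4 null and 272 lower.

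Single genes turned sign mostly near 0 or between orientations. In channel 1 alone COS12 read 0.342, TRP1 0.202, LYS2 0.378, GEA2 0.126, MNT2 0.17, SIR1 0.095, SIR4 0.156, ZRT2 -0.093, HHT2 -0.197 and HTA2 -0.344. In channel 2 alone HTA1 read 0.396, HTB1 0.409, HTB2 0.173, YCL019W 0.238, AFI1 0.026 and GIT1 -0.212. Without centring UBP8 read 0.019, CAN1 0.011, AFI1 0.005 and SWD1 0.008. The sets are numbered alike in the 3 genotypes. Deviations of sets with the same number correlated at 0.274, 0.048 and 0.15 with the ubp8 null and at 0.088, 0.134 and 0.239 with the double null. Those of sets with different numbers correlated at -0.331 to 0.138 and at -0.252 to 0.166. With 3 sets these values cannot tell whether the numbers pair the samples, and the main contrasts were fitted without pairing. With a replicate block the contrasts gave 170 higher and 153 lower ORFs against the ubp8 null and 45 and 251 against the double null. Channel intensities were not used here, so how far each ORF lay above background is unknown.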
